A study of Homo sapiens with 4 samples.

Results

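Mitosis genes are described here in LNCaP, a human prostate carcinoma line, from RNA sequencing of 4 libraries. The set holds 60 genes of mitotic entry, spindle assembly, chromosome segregation and cytokinesis, taken by gene symbol from the 17902 genes of the deposited table, and all 60 are listed there. The labels give 2 Control libraries, of genotype WT, and 2 libraries of cells with ETV5 overexpression (ETV5_OE). Treatment, time in culture and the vector are not given in the labels, nor is what separates the replicates of a group, so p-values measure only the spread between these libraries. The ETV5_OE library names differ only by a letter R, added in replicate 2; of the Control names, which carry different numbers, that of replicate 1 has the R. The labels do not say what the letter means. The study concerns neuroendocrine prostate cancer, and its design asks what differs when the ETS transcription factor ETV5 is raised.

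Cells enter mitosis when cyclin B and CDK1 become active, and leave it when the anaphase-promoting complex (APC/C) has securin and cyclin B destroyed. Most genes of this program are transcribed in G2 and M phase, and are silenced in G1 and in resting cells by repressor complexes that act at shared promoter elements. Their summed RNA in a bulk sample is therefore widely used as a readout of how many cells are dividing. In bulk RNA, fewer dividing cells and less RNA per dividing cell cannot be told apart.

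Control replicate 1 held 30227070 counts and Control replicate 2 held 20639543, while ETV5_OE replicate 1 held 22369062 and ETV5_OE replicate 2 held 24642392. Counts of ETV5 were 22 and 27 for Control and 534 and 522 for ETV5_OE (log2 fold change 4.54, SE 0.32, edgeR adjusted p = 0.00151), as the labels state. All 9 luminal prostate markers read here, among them KLK3, were listed. Their summed levels were 8039.2 and 8617.4 CPM (counts scaled to a common library size) in Control replicates 1 and 2. In ETV5_OE replicates 1 and 2 they were lower, at 5885.5 and 6533.2 CPM. The 3 of 5 stromal markers listed summed to 83.9 CPM in ETV5_OE replicate 1 and to between 10.5 and 12.1 CPM in the other libraries. VWF, the 1 of 3 endothelial markers listed, was at 14 CPM in Control replicate 1, 4.01 in Control replicate 2, 7.98 in ETV5_OE replicate 1 and 5.43 in ETV5_OE replicate 2. None of the 4 immune markers was analysed here. The part of these markers in the results below was not tested.

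The mitosis genes separated the Control libraries from each other more than they separated ETV5_OE from Control. Their summed level was 4257.9 CPM in Control replicate 1 and 1696.0 CPM in Control replicate 2. In ETV5_OE replicates 1 and 2 it was 3262.0 and 3421.9 CPM, between the Control values. Control replicate 2 was the lowest of the 4 libraries for 59 of 60 members, against 27.3% of all 16194 genes tested, and Control replicate 1 was the highest for 54, against 23.8%. Both held at once for 53 members, against 8.9% of all genes.

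**Figure D1:**
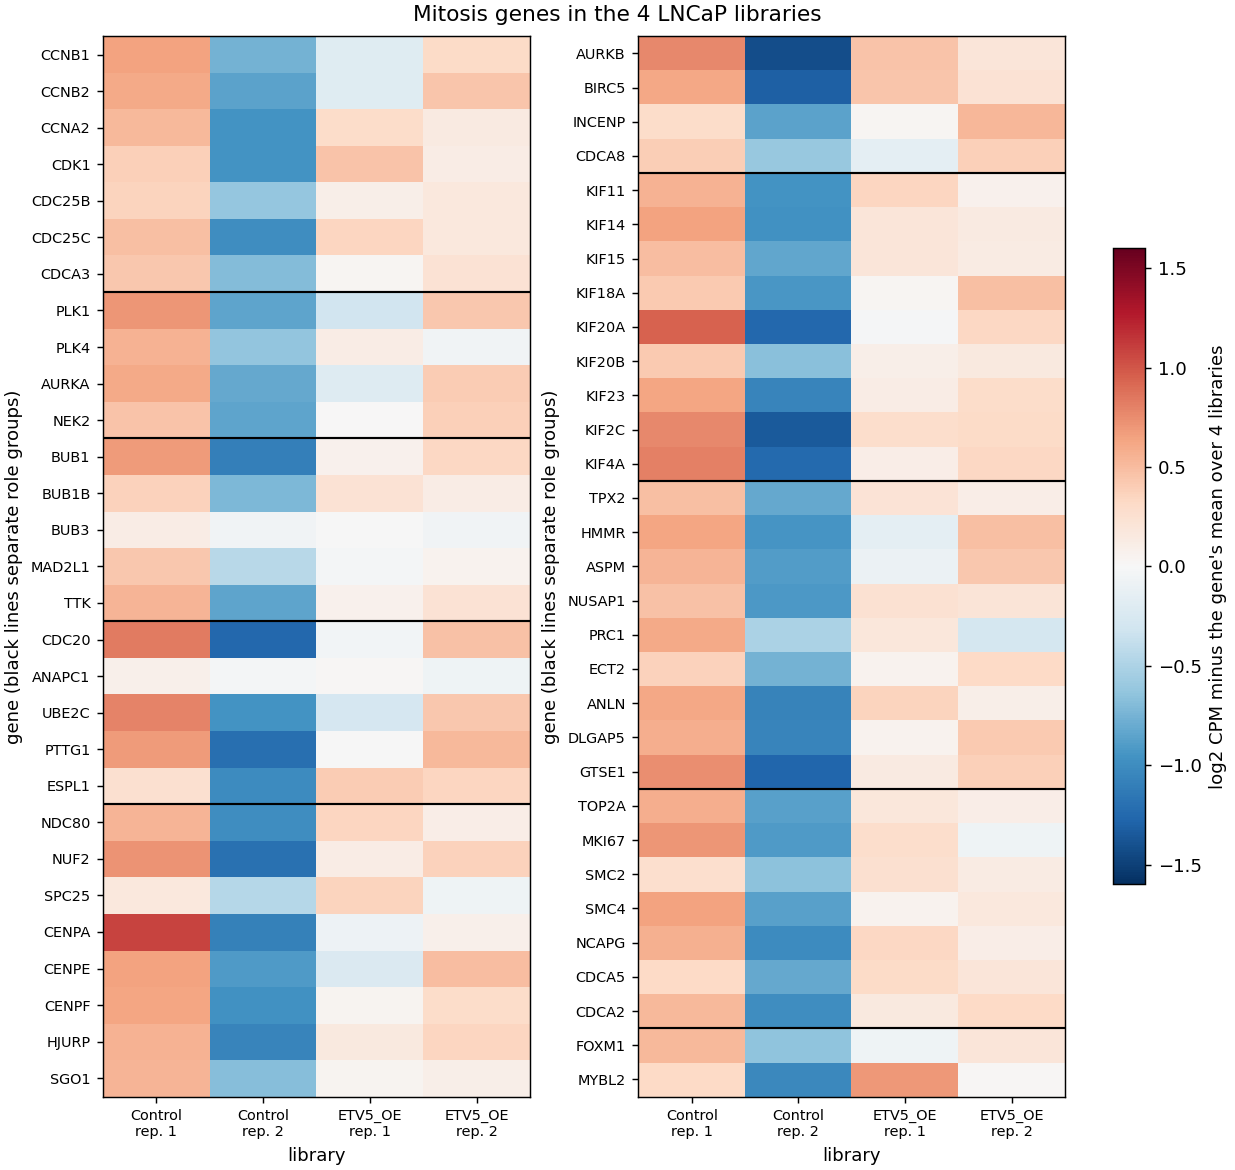
Log2 CPM of the 60 mitosis genes (rows, by role group) in the 4 libraries (columns), each gene centred on its own mean. Control replicate 2 is the lowest library for 59 genes and Control replicate 1 the highest for 54, while BUB3 and ANAPC1 are nearly flat.

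The gap was measured as a difference of log2 CPM (prior count 2). All 60 members were lower in Control replicate 2 than in Control replicate 1, as were 48.9% of all genes. For 53 of 60 the gap was 2-fold or more, against 5.03% of all genes, and for 58 it was 1.5-fold or more, against 11.5%. None was 2-fold or more higher, against 3.64% of all genes. The median gap was 2.74-fold (log2 ratio -1.45), where the median over all genes was 0.01 on the log2 scale. With 1 library on each side this is a value without a replicate, and it has no p-value. Counting error was small beside the gap of AURKB, which had 608 and 91 counts. Its ratio in CPM was 4.57, with an exact 95% binomial interval of 3.66 to 5.76 that covers counting error only. It was wider beside the gap of SPC25, the member with the fewest counts, 153 and 68. There the ratio was 1.54, with an interval of 1.15 to 2.08. Control replicate 1 was also the deepest library and Control replicate 2 the shallowest. With every library thinned to 20639543 counts, a check chosen after the data were seen, 53 members were again 2-fold or more lower and the median log2 ratio was -1.43.

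Of the 814 genes that were 2-fold or more lower in Control replicate 2 than in Control replicate 1, 53 were mitosis genes, which is 6.51% of those genes and 88.3% of the mitosis genes. The remaining 7 members were CDC25B, BUB3, MAD2L1, ANAPC1, SPC25, CDCA8 and SMC2. Of these, BUB3 and ANAPC1 had the smallest gaps of all members, at 1.13-fold (95% interval 1.08 to 1.19) and 1.08-fold (1.02 to 1.15).

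The promoters of members that were low in the same library are shown because mitosis genes are known for 2 shared elements, the cell cycle genes homology region (CHR) and the CCAAT box bound by NF-Y. The CHR, TTTGAA or TTTAAA, is where the DREAM complex represses and the MYBL2 and FOXM1 containing complexes activate these genes. RefSeq promoter windows, 250 bases before to 50 after each start on GRCh38.p14, matched 52 of 60 members by gene ID, with 66 windows. The 4 most abundant matched members by FPKM (fragment counts scaled by transcript length and library size) with both elements in 1 window were CDK1 (chr10:60778081-60778380), PTTG1 (chr5:160421605-160421904), CCNB1 (chr5:69166900-69167199) and NUSAP1 (chr15:41332631-41332930), all on the plus strand. Capitals mark CHR letters and CCAAT boxes on either strand, so that a reversed box reads ATTGG.
CDK1: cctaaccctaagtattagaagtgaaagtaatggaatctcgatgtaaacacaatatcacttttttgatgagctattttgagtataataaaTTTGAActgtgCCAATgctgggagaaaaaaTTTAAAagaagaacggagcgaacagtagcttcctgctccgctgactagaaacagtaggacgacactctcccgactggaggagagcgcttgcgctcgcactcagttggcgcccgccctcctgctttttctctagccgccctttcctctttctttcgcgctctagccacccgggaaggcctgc
PTTG1: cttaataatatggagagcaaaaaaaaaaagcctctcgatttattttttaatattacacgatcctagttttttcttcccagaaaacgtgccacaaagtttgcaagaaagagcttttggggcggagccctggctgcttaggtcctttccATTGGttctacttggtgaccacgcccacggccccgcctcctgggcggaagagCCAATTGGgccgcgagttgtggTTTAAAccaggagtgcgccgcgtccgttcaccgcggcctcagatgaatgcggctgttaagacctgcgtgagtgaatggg
CCNB1: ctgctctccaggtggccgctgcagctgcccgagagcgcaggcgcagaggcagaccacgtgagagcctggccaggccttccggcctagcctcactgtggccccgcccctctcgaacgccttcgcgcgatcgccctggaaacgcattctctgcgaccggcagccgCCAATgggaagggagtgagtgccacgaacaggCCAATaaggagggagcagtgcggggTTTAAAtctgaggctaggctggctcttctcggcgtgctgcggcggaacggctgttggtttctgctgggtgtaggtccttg
NUSAP1: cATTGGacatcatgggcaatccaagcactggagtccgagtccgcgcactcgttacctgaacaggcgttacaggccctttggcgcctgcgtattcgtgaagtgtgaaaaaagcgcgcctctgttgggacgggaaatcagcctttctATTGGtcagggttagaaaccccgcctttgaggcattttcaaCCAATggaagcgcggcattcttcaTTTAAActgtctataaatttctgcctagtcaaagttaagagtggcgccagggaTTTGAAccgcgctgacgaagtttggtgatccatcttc

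In CCNB1 a CHR began 30 bases before the annotated start, with CCAAT boxes beginning 55 and 87 bases before it. PTTG1 had a CHR beginning 29 bases before its start and a CCAAT box that overlaps its own reverse complement, beginning 51 bases before. NUSAP1 had a CHR beginning 40 bases before and another beginning at base 14 after the start. In CDK1 the matches lay farther out, the nearest CHR beginning 131 bases before the start used by this annotation. These 4 genes were 2.65-fold (CCNB1), 3.72-fold (PTTG1), 2.60-fold (NUSAP1) and 2.51-fold (CDK1) lower in Control replicate 2 than in Control replicate 1.

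CHR letters, searched as TTTGAA and TTTAAA on both strands, were in 49 of 66 member windows (74.2%, exact 95% binomial interval 62.0 to 84.2%). Over all 16804 windows of tested genes they were in 17.3%. CCAAT was in 44 member windows (66.7%, 54.0 to 77.8%) and in 35.2% of all windows. Both together were in 35 member windows (53.0%) and in 6.88% of all windows. An ETS motif, CCGGAAGT, was in 5 member windows (7.58%) and in 7.28% of all windows, and the E2F-like letters TTTGGCGC or TTTCCCGC were in 4 (6.06%) and in 3.38%. Some genes have more than 1 window, so windows are not independent and the intervals cover counting error only. Members with and without the pair of elements had like gaps between the Control libraries: the median log2 ratio was -1.45 over 32 members with both and -1.40 over the other 20. The letters describe these windows only and say nothing of which factor was bound.

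**Figure D2:**
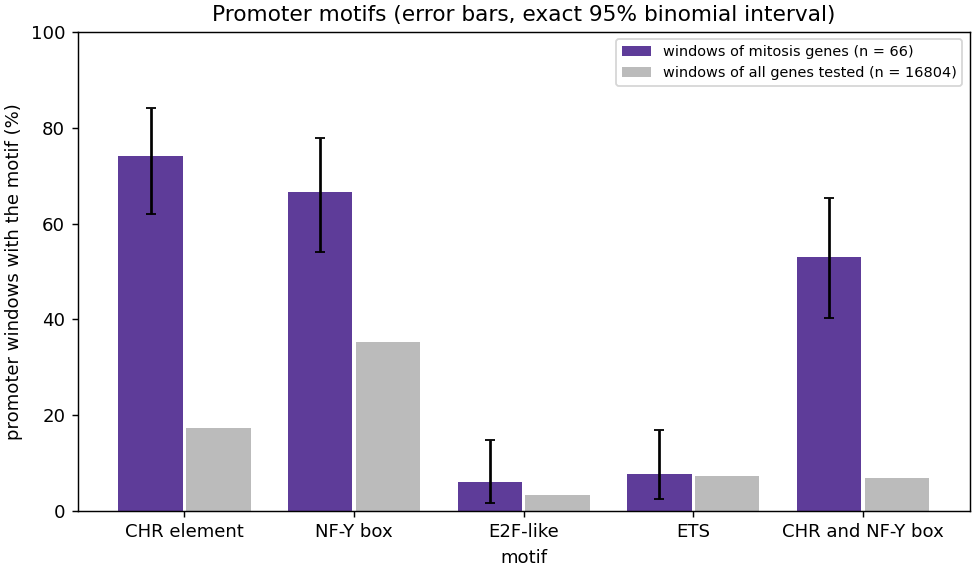
Share of RefSeq promoter windows with each motif, in percent, for 66 windows of mitosis genes and 16804 windows of all genes tested; error bars are exact 95% binomial intervals. CHR letters are in 74.2% of member windows against 17.3% of all windows, and the ETS motif is in 7.58% against 7.28%.

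Between the groups, no mitosis gene passed the threshold. Raw counts were tested with the quasi-likelihood F test of edgeR, adjusted over all 16194 genes by Benjamini-Hochberg, and an adjusted p under 0.05 was called. Of all genes, 65 were called (0.401%), 41 higher and 24 lower in ETV5_OE. Of the 60 members, all of which passed the count filter, 0 were called, 0 had an unadjusted p under 0.05 against 7.14% of all genes, and the smallest adjusted p was 0.866. DESeq2 and limma on FPKM also called 0 members. In simulated data the edgeR fit called 19% of genes changed 2-fold, so 0 called does not show that members were unchanged. The log2 fold changes ran from -0.38 to 0.60 with a median of 0.18, where the median over all genes was 0.00. They were above 0 for 50 of 60 members with this scaling, against 50.6% of all genes. With total counts only they were above 0 for 46, where the median over all genes was -0.04. The largest standard error was 0.88, for KIF20A, the member with the widest gap between the Control libraries. In the authors' deposited table, 56 of 60 members had a positive signed fold, none had an unadjusted p under 0.05 against 3.06% of listed genes, and the smallest p was 0.251.

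In log2 CPM, the groups overlapped for 59 of 60 members. ESPL1 was the 1 member whose ETV5_OE libraries both lay above both Control libraries, against 18.8% of all genes. Lying below both were 0 members, against 18.8%. In FPKM the groups of INCENP did not overlap either.

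The answer turned on which Control library was kept. Without Control replicate 1, edgeR called 30 of 60 members higher in ETV5_OE, against 1.16% of all genes, and 0 lower, against 0.412%. All 60 log2 fold changes were above 0, with a median of 1.09. Without Control replicate 2, 57 of 60 log2 fold changes were below 0 and the median was -0.37, where that over all genes was 0.01. Without ETV5_OE replicate 1 it called 0 members, higher (0.0181% of all genes) or lower (0.00603%), and the same without ETV5_OE replicate 2 (0.0424% and 0.0484%), with 0 members at an unadjusted p under 0.05 in either. In each of these fits the lone library was assumed to vary like the pair of the other group, so calls among members are not given. Without Control replicate 1, the 4 members of the mitotic kinase group had log2 fold changes of 0.95 (PLK1), 0.66 (PLK4), 0.95 (AURKA) and 1.06 (NEK2). Kinases placed in other role groups were at 1.25 (CDK1), 1.31 (BUB1), 0.999 (TTK) and 1.75 (AURKB) in that fit.

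**Figure D3:**
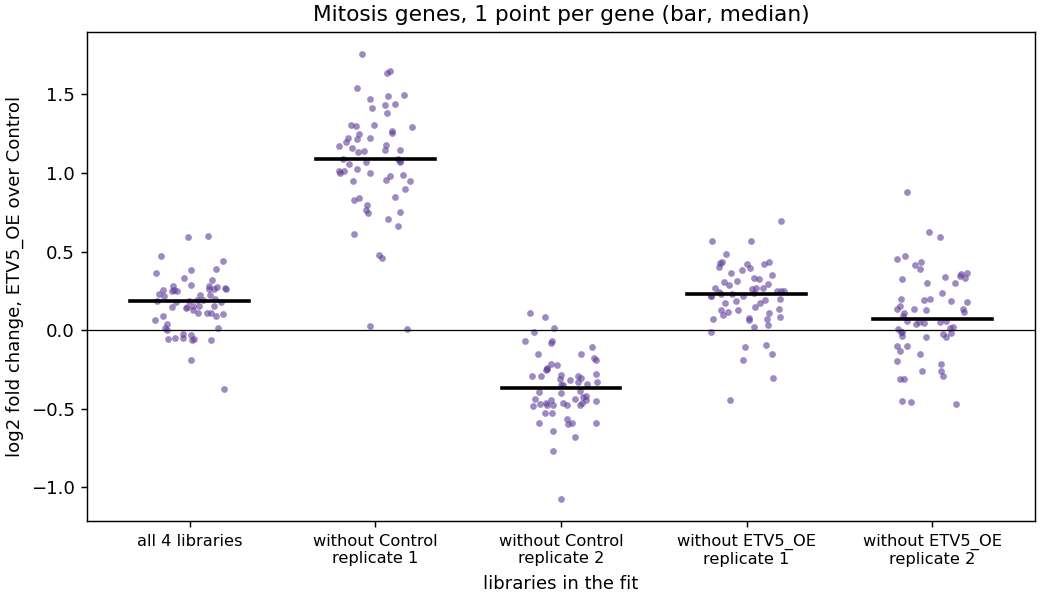
Log2 fold change of ETV5_OE over Control for each of 60 mitosis genes (points, with the median as a bar), with all 4 libraries and without each in turn. The median is 0.18 with all libraries, 1.09 without Control replicate 1 and -0.37 without Control replicate 2.

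The 7 genes of the mitotic engine summed to 648.0 and 254.2 CPM for Control and to 546.0 and 536.8 CPM for ETV5_OE (replicate 1 before replicate 2 here and in the values that follow). CDK1, the kinase that drives entry (ID 983; chromosome 10, 60778331 to 60794852), was the most abundant member per transcript length, at a mean of 123.5 FPKM. Its level was 297.3 and 118.3 CPM for Control and 315.4 and 248.3 CPM for ETV5_OE. It was 1 of the few members highest in an ETV5_OE library, but the groups overlapped. The means were 207.8 ± 126.6 and 281.9 ± 47.5 CPM (SD, n = 2), with a log2 fold change of 0.44 (SE 0.53, edgeR adjusted p = 0.941).

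Its cyclin partners followed the Control gap. CCNB1 and CCNB2, the B-type cyclins that activate CDK1 for entry, were 2.65-fold and 2.74-fold lower in Control replicate 2 than in Control replicate 1. CCNA2, the cyclin of S and G2 phase, was 2.76-fold lower. The CDC25 phosphatases remove the inhibitory phosphates from CDK1: CDC25C was 2.74-fold lower and CDC25B 1.96-fold lower. CDCA3, an adaptor linked to WEE1 turnover at entry, was 2.16-fold lower.

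The 4 mitotic kinases summed to 148.7 and 58.1 CPM for Control and to 96.3 and 129.1 CPM for ETV5_OE. NEK2, a centrosome-splitting kinase (ID 4751; chromosome 1, 211658256 to 211675621), was at 60.3 and 24.4 CPM for Control and 44.2 and 57.5 CPM for ETV5_OE. Both ETV5_OE values lay between the Control values, and the log2 fold change was 0.26 (SE 0.50, adjusted p = 0.961). PLK1, which acts from centrosome maturation to cytokinesis, stood at 20.7 and 7.11 CPM in Control and at 10.3 and 17.2 CPM in ETV5_OE. It had the widest gap of any member between the ETV5_OE libraries, 1.66-fold. AURKA, the spindle-pole kinase, was 1.54-fold higher in ETV5_OE replicate 2 than in replicate 1. PLK4, which licenses centriole duplication and acts outside mitosis, had a gap of 1.12-fold the other way.

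The spindle assembly checkpoint holds anaphase until every chromosome is attached. BUB3 (ID 9184; chromosome 10, 123154402 to 123170467), the adaptor that brings BUB1 and BUBR1 to kinetochores, stood at 162.3 and 143.3 CPM in Control and at 148.7 and 143.6 CPM in ETV5_OE. The 4 libraries were close together (log2 fold change -0.06, SE 0.14, adjusted p = 0.963). BUB1B, which encodes BUBR1 (ID 701; chromosome 15, 40161069 to 40221123), stood at 52.0 and 24.4 CPM in Control and at 47.3 and 43.7 CPM in ETV5_OE. Control replicate 2 alone was low, and the log2 fold change was 0.25 (SE 0.37, adjusted p = 0.95). The checkpoint kinases BUB1 and TTK were 3.43-fold and 2.61-fold lower in Control replicate 2 than in Control replicate 1, and the APC/C inhibitor MAD2L1 was 1.84-fold lower.

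Among genes of the APC/C step, the constant subunit and the regulators parted. ANAPC1, the large scaffold subunit, stood at 93.8 and 86.7 CPM in Control and at 90.0 and 84.1 CPM in ETV5_OE, and was the 1 member not lowest in Control replicate 2. CDC20, the activator, was 4.22-fold lower in Control replicate 2 than in Control replicate 1, and UBE2C, the ubiquitin-conjugating enzyme of the complex, 3.35-fold. PTTG1, securin (ID 9232; chromosome 5, 160421855 to 160428744), stood at 94.2 and 25.3 CPM in Control and at 58.5 and 84.2 CPM in ETV5_OE (log2 fold change 0.25, SE 0.79, adjusted p = 0.978). Both ETV5_OE libraries lay inside the Control range. ESPL1, the protease separase that cuts cohesin once securin is gone (ID 9700; chromosome 12, 53268299 to 53293638), stood at 16.1 and 6.68 CPM in Control and at 17.8 and 17.0 CPM in ETV5_OE. In the edgeR fit of all 4 libraries, no member had a higher log2 fold change than its 0.60 (SE 0.41, adjusted p = 0.866), and it did not pass. With limma on log2(FPKM + 1) ESPL1 was at 0.43, below the 0.59 of MYBL2.

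The 8 centromere and kinetochore genes summed to 490.4 and 160.7 CPM in Control and to 329.3 and 389.6 CPM in ETV5_OE. NDC80, which binds microtubule ends (ID 10403; chromosome 18, 2571557 to 2616635), stood at 46.2 and 16.0 CPM in Control and at 40.3 and 34.3 CPM in ETV5_OE (log2 fold change 0.26, SE 0.58, adjusted p = 0.968). CENPA, the histone variant that marks the centromere (ID 1058; chromosome 2, 26786056 to 26794589), stood at 22.3 and 5.01 CPM in Control and at 10 and 11.2 CPM in ETV5_OE. In the edgeR fit of all 4 libraries without a block, no member had a lower log2 fold change than its -0.38 (SE 0.80, adjusted p = 0.965). CENPA was at -0.08 with limma on log2(FPKM + 1), where the lowest member was at -0.11. With the replicate number as a block CENPA was at -0.04, where the lowest was at -0.1. Its chaperone HJURP was 3.04-fold lower in Control replicate 2 than in Control replicate 1. Of the NDC80 complex, NUF2 was 3.74-fold lower and SPC25 1.52-fold lower. SPC25 had the fewest counts of any member, 153 and 68 in the Control libraries. The kinetochore motor CENPE was 2.93-fold lower, the large coiled-coil protein CENPF 3.05-fold and the cohesin protector SGO1 2.33-fold.

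The chromosomal passenger complex corrects faulty attachments and then directs cytokinesis. BIRC5, survivin (ID 332; chromosome 17, 78214253 to 78225635), stood at 70.0 and 18.4 CPM in Control and at 61.9 and 53.5 CPM in ETV5_OE (log2 fold change 0.38, SE 0.76, adjusted p = 0.963). INCENP, the scaffold (ID 3619; chromosome 11, 62124011 to 62153169), stood at 33.2 and 15 CPM in Control and at 27.8 and 39.2 CPM in ETV5_OE (log2 fold change 0.47, SE 0.43, adjusted p = 0.906). In CPM, INCENP was highest in ETV5_OE replicate 2, while BIRC5 was highest in Control replicate 1, and neither separated the groups. In FPKM, INCENP stood at 5.05 and 3.49 in Control and at 6.42 and 5.94 in ETV5_OE. Its groups did not overlap on that measure. The kinase AURKB was 4.50-fold lower in Control replicate 2 than in Control replicate 1, and CDCA8, borealin, 1.99-fold.

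All 9 mitotic kinesins were 2-fold or more lower in Control replicate 2 than in Control replicate 1. KIF20A, needed for cytokinesis, had the widest gap of any member, 4.58-fold. KIF2C, a microtubule-depolymerising kinesin (ID 11004; chromosome 1, 44739837 to 44767767), stood at 84.0 and 19.5 CPM in Control and at 59.9 and 61.2 CPM in ETV5_OE. The ETV5_OE libraries were almost equal while the Control libraries were 4.30-fold apart (log2 fold change 0.22, SE 0.84, adjusted p = 0.982). KIF18A, which limits chromosome oscillation (ID 81930; chromosome 11, 28020619 to 28108156), stood at 17.3 and 6.78 CPM in Control and at 13.2 and 18.0 CPM in ETV5_OE (log2 fold change 0.36, SE 0.47, adjusted p = 0.943). KIF4A, a motor of chromosome arms and the midzone, had a gap of 4.13-fold and KIF23, of the centralspindlin complex, 3.20-fold. KIF11, the motor that separates the poles, had 2.85-fold, KIF14 3.05-fold, KIF15 2.50-fold and KIF20B 2.12-fold.

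**Figure D4:**
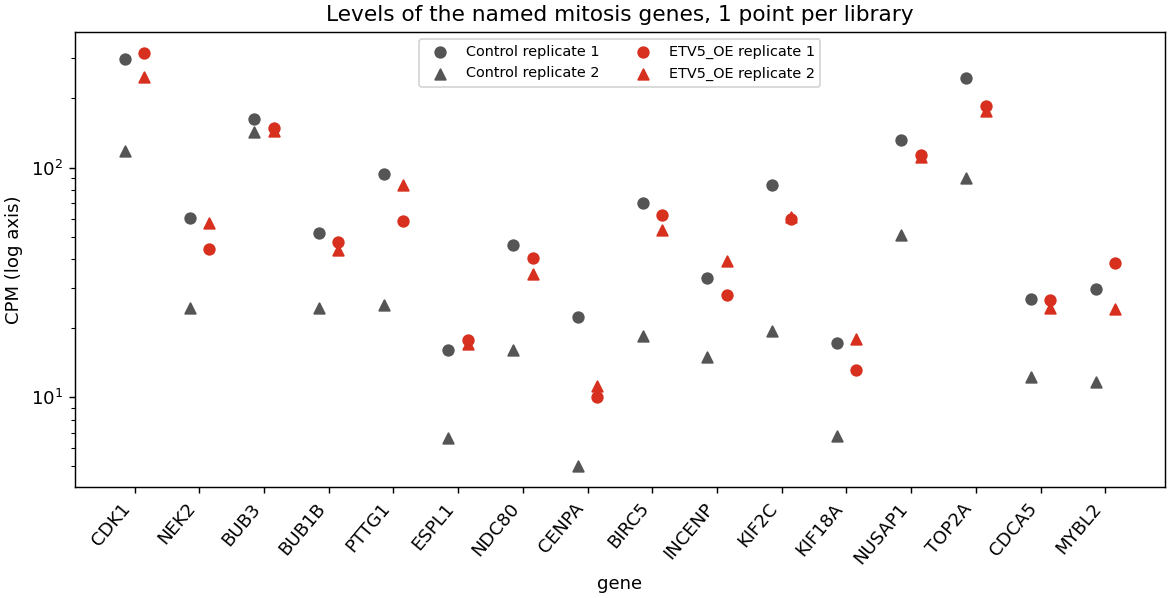
CPM on a log axis of the 16 mitosis genes named by rule, with 1 point for each of 4 libraries (circles, replicate 1; triangles, replicate 2; grey, Control; red, ETV5_OE). The grey triangle is the lowest point for all 16 genes, and for BUB3 the 4 points nearly coincide, from 143.3 to 162.3 CPM.

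The 9 spindle, midzone and cytokinesis genes were all 2-fold or more lower in Control replicate 2 and all highest in Control replicate 1. NUSAP1, which bundles spindle microtubules near chromosomes (ID 51203; chromosome 15, 41332881 to 41381046), stood at 132.4 and 50.8 CPM in Control and at 113.4 and 110.8 CPM in ETV5_OE (log2 fold change 0.29, SE 0.53, adjusted p = 0.959). GTSE1, a microtubule-binding protein, had the widest gap in the group at 4.0-fold. The RhoA activator ECT2 and the midzone bundler PRC1 had the narrowest, both 2.18-fold. TPX2, the activator of AURKA, was 2.46-fold lower in Control replicate 2 and the contractile ring scaffold ANLN 3.21-fold. HMMR was 2.98-fold lower, the spindle-pole protein ASPM 2.69-fold and DLGAP5, which stabilises kinetochore fibres, 3.09-fold.

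Genes of chromosome structure summed to 748.4 and 284.4 CPM in Control and to 593.1 and 556.8 CPM in ETV5_OE. TOP2A, the topoisomerase that untangles sister chromatids (ID 7153; chromosome 17, 40388525 to 40417896), stood at 245.7 and 89.7 CPM in Control and at 185.5 and 176.7 CPM in ETV5_OE (log2 fold change 0.11, SE 0.56, adjusted p = 0.989). CDCA5, sororin (ID 113130; chromosome 11, 65061093 to 65084040), which keeps cohesin on chromosomes, stood at 26.7 and 12.2 CPM in Control and at 26.5 and 24.5 CPM in ETV5_OE. Both ETV5_OE libraries lay just under Control replicate 1 (log2 fold change 0.39, SE 0.37, adjusted p = 0.909). MKI67, which encodes the proliferation antigen Ki-67 that coats mitotic chromosomes, stood at 112.7 and 36.9 CPM in Control and at 83.9 and 66.2 CPM in ETV5_OE, with a log2 fold change of 0.00. The condensin genes SMC2, SMC4 and NCAPG were 1.89-fold, 2.84-fold and 2.97-fold lower in Control replicate 2 than in Control replicate 1, and CDCA2, a phosphatase-targeting subunit of anaphase chromatin, 2.83-fold.

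Of the transcription factors of the program, MYBL2 (ID 4605; chromosome 20, 43667114 to 43716482), which acts from late G1 and S phase, stood at 29.6 and 11.7 CPM in Control and at 38.5 and 24.2 CPM in ETV5_OE (log2 fold change 0.59, SE 0.54, adjusted p = 0.908). It was highest in ETV5_OE replicate 1. FOXM1, which acts in G2 phase, stood at 41.8 and 18.7 CPM in Control and at 27.7 and 33.4 CPM in ETV5_OE, both inside the Control range. Both genes were 2-fold or more lower in Control replicate 2 than in Control replicate 1, by 2.51-fold and 2.23-fold.

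The ETV5_OE libraries differed little for most members. The median log2 ratio of replicate 2 over replicate 1 was 0.10, a 1.07-fold difference, with 35 members higher in replicate 2, against 50.1% of all genes, and 25 higher in replicate 1. Past 1.5-fold, 6 members were higher in replicate 2, against 9.05% of all genes: CCNB2, PLK1, AURKA, UBE2C, CENPE and HMMR. MYBL2 was the 1 member higher in replicate 1 past that fold, at 1.59-fold, against 8.18% of all genes. The difference has no replicate and no p-value.

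DNA replication genes, which peak before mitosis, were read beside the mitosis genes in the ETV5_OE pair. Of 29 such genes, 27 were higher in ETV5_OE replicate 1 than in replicate 2, against 49.9% of all genes, with a median of 1.29-fold. Their summed level was 1855.7 and 1353.8 CPM in ETV5_OE replicates 1 and 2, where that of the mitosis genes was 3262.0 and 3421.9 CPM. In the Control pair both sets were lower in replicate 2. Replication genes were lower by a median of 1.66-fold: 27 of 29 at all, 17 by 1.5-fold or more and 6 by 2-fold or more. Mitosis genes were lower by a median of 2.74-fold, with 60, 58 and 53 of 60 in the same order. The shares over all genes were 48.9%, 11.5% and 5.03%. Genes of mitosis were not uniform in the ETV5_OE pair: 5 of 7 chromosome structure members were higher in replicate 1, as were 18 of 25 other centromere and kinetochore genes and 11 of 14 other condensin and cohesin genes. The difference between the sets was not tested.

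**Figure D5:**
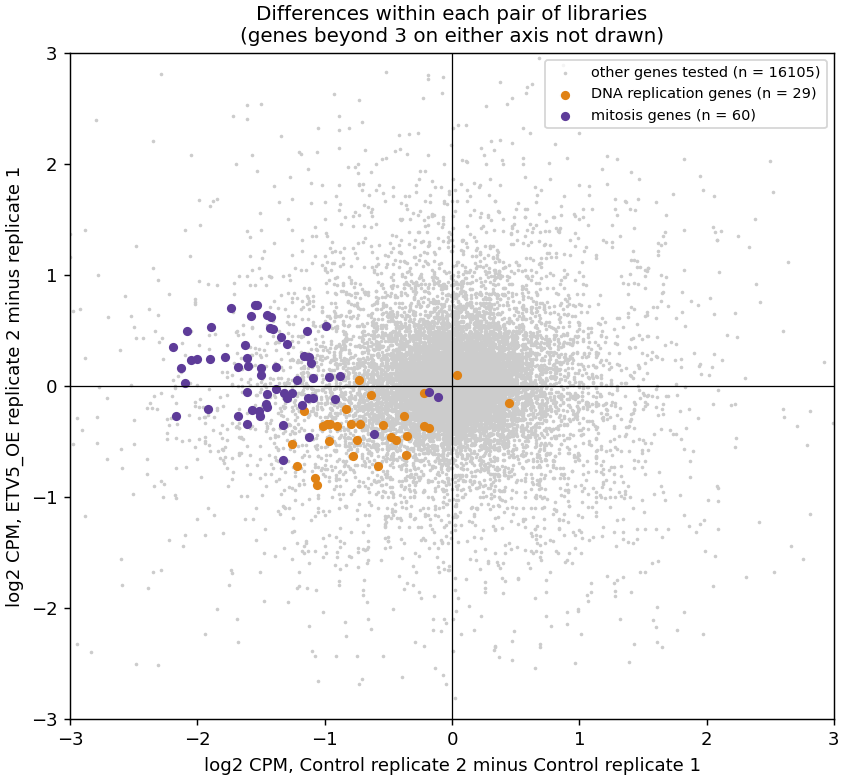
Log2 CPM of replicate 2 minus replicate 1 within Control (horizontal) and within ETV5_OE (vertical), 1 point per gene, for 60 mitosis genes, 29 DNA replication genes and all other genes tested. Mitosis genes lie to the left with a median of -1.45 and near 0 vertically, and 27 of 29 replication genes lie below 0 vertically.

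Other genes of the pathway were read from lists of APC/C and mitotic exit, centromere and kinetochore, and condensin and cohesin genes, with 21, 25 and 14 members. None of these was called in either direction, against 0.401% of all genes. The APC/C and exit genes had a median gap between the Control libraries of 1.11-fold. Of the 21, 2 were 2-fold or more lower in Control replicate 2, against 5.03% of all genes. These were UBE2S and FBXO5, at 119.2 and 23.9 CPM in Control replicate 1 and 42.1 and 10.5 CPM in Control replicate 2; UBE2S is a ubiquitin-conjugating enzyme of the APC/C and FBXO5 its inhibitor. Of the centromere and kinetochore genes, 11 of 25 were 2-fold or more lower, with a median gap of 1.69-fold, and of the condensin and cohesin genes 2 of 14, with 1.30-fold.

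The largest absolute log2 fold change between the groups within each of those lists, taken in turn, was in PKMYT1, CENPN and PDS5B. CENPN, which reads the CENPA nucleosome, stood at 475.0 and 546.5 CPM in Control and at 293.5 and 341.1 CPM in ETV5_OE. The groups did not overlap, but the log2 fold change of -0.69 (SE 0.15) did not pass (edgeR adjusted p = 0.186). PDS5B, a cohesin regulator, stood at 73.1 and 73.4 CPM in Control and at 53.6 and 53.8 CPM in ETV5_OE (log2 fold change -0.45, SE 0.14, adjusted p = 0.420). PKMYT1, a kinase that inhibits CDK1, had a log2 fold change of 0.45 (SE 0.34, adjusted p = 0.880).

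Upstream regulators were read in the same way. The products of some of 14 DREAM, pocket protein and NF-Y genes act at the CHR and CCAAT elements printed above. Of the 14, 11 were lower in Control replicate 2, 2 of them by 1.5-fold or more and 0 by 2-fold or more. Their median gap was 1.09-fold. The shares over all genes were 48.9%, 11.5% and 5.03%, so a count of 0 at 2-fold is near the background for a list of this size. None was called. LIN37 had their largest log2 fold change, -0.62 (SE 0.47, adjusted p = 0.877). Of the G1 cyclins, CDKs and CDK inhibitors, 11 of 12 were tested and none was called. In Control replicate 2, 8 of the 11 were lower, 4 by 1.5-fold or more and 0 by 2-fold or more, with a median gap of 1.33-fold. CDKN2D, an inhibitor of CDK4 and CDK6, had their largest log2 fold change, 0.50 (SE 0.30, adjusted p = 0.822). Of the replication genes none was called either, and CDC45, of the replicative helicase, had the largest value, 0.60 (SE 0.51, adjusted p = 0.899). CDKN1A, the p21 inhibitor and chosen after its values were seen, stood at 283.2 and 302.3 CPM in Control and at 308.3 and 325.2 CPM in ETV5_OE.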

How the data were processed

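RNA of 4 LNCaP libraries, 2 Control and 2 ETV5_OE, was sequenced as paired ends. Trimmomatic, HISAT2, StringTie and hg38 are named in the submitters' processing notes, without versions, roles or strand setting. The authors deposited raw read counts per gene, per the file headers, and each listed gene has a read in every library, so genes without one are not analysed here. The deposited FPKM values scale fragments to length and depth. Group means and SDs that the authors deposited on a log2 scale were not used. The deposited fold, a signed score, and the deposited unadjusted p-values are quoted as the authors' table; the sources used here do not name the test behind them.

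The test on counts was run in edgeR 4.0.16 (R 4.3.3): default filter (minimum count 10, 16194 of 17902 genes kept), TMM scaling, robust quasi-likelihood F test, Benjamini-Hochberg over all genes tested. The code was tested on simulated data with known changes. There it called 1.27% of genes changed 1.5-fold, 19% of those changed 2-fold and 65.5% of those changed 4-fold. Of its 68 calls, 25% were genes left unchanged. CPM uses TMM-scaled library sizes. Ratios of libraries use log2 CPM with a prior count of 2. DESeq2 1.42.0 and limma 3.58.1 (on log2(FPKM + 1) and log2(FPKM + 0.1), genes at FPKM 1 or more in 2 libraries) were alternatives, with RLE and total-count scaling, no filter, the replicate number as a block and each library left out.

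The members and lists were chosen with earlier results of these data known. Text names, in each of 10 role groups, the member with the highest mean FPKM and that with the largest absolute log2 fold change, any member called, and in other lists the largest absolute log2 fold change; other members are given with library values. Gene positions are from RefSeq (GRCh38.p14, of which hg38 is another name for the primary build), looked up by gene ID. The 8 members without a promoter window were AURKA, BIRC5, BUB3, CDCA2, FOXM1, TPX2, TTK and UBE2C. A marker gene of the luminal list is not reported here.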

Additional observations from a re-analysis of the deposited data

How the results depend on the processing

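With all 4 libraries, 0 mitosis genes were called and the median log2 fold change stayed above 0 under each alternative run, from 0.14 with total-count scaling to 0.34 with the replicate block. Leaving out a library gave 0 to 30 members called and medians from -0.37 to 1.09. Over all genes, 65 were called, against 223 with DESeq2 (119 higher and 104 lower), 13 with limma on log2(FPKM + 1) (9 and 4) and 12 on log2(FPKM + 0.1) (8 and 4); the cause was not tested. It was 259 and 162 without Control replicates 1 and 2, and 4 and 15 without ETV5_OE replicates 1 and 2, where fewer libraries set the spread.

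The named genes whose log2 fold change turned direction when a library was left out ran over these ranges: CDK1 -0.08 to 1.25, NEK2 -0.25 to 1.06, BUB3 -0.15 to 0.03, BUB1B -0.19 to 0.90, PTTG1 -0.40 to 1.5, NDC80 -0.31 to 1.22, CENPA -1.07 to 1.08, BIRC5 -0.28 to 1.65, KIF2C -0.47 to 1.64, KIF18A -0.15 to 1.2, NUSAP1 -0.24 to 1.14, TOP2A -0.44 to 1.01, CDCA5 -0.07 to 1.07. None of the 16 named genes turned under another alternative. Without Control replicate 1, all 60 members had a log2 fold change above 0, with a median of 1.09, where that over all genes was 0.01.

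Replicate numbers were not shown to pair the libraries: the deviations of same-numbered libraries from their group means had a Pearson correlation of 0.0187 across 16194 genes. The replicate block called 55 genes and 0 members. Pairing by the letter R of the library names, which crosses the replicate numbers, was not fitted. The gap between the Control libraries kept its direction with RLE (median log2 ratio -1.46), total counts (-1.45) and log2(FPKM + 1) (-1.32, with 45 members at 2-fold or more). Motif shares with 150 bases before the start stayed within the 95% intervals of the longer window. Member counts ran from 68 to 9117 a library.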

Other observations

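ARPP19, a phosphoprotein that inhibits the phosphatase PP2A when cells enter mitosis, was chosen after its values were seen from the list of APC/C and mitotic exit genes. ARPP19 was at 62.8 CPM in Control replicate 1, 322.3 in Control replicate 2, 36.8 in ETV5_OE replicate 1 and 307.4 in ETV5_OE replicate 2. It was high in replicate 2 of both groups, which no mitosis gene was, and its log2 fold change was -0.16 (SE 1.59, edgeR adjusted p = 0.993). Among the other centromere genes, CENPW, a histone-fold protein also chosen after its values were seen, had its own lowest level in Control replicate 2, at 2.67 CPM against 12.7 CPM in Control replicate 1, 12.2 CPM in ETV5_OE replicate 1 and 9.56 CPM in ETV5_OE replicate 2.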
